A study of Chenopodium quinoa with 24 samples.

Results

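Leaves of quinoa plants with warm roots and cool shoots (HR, 30°C around the roots, 22°C around the shoots) were compared with those of control plants (22°C throughout) on day 11 of the treatment, its last day. These are 6 of the 24 plants sequenced, 3 HR and 3 control, chosen by their treatment and day, and all 30588 of the 44776 listed transcripts that were tested in them were described. All plants were of the accession QQ74, from seed of plants that the methods call heterozygous, so the plants may have differed in genotype. Treatment began at flowering, leaves were taken at ZT2, early in the light period, and each plant is a biological replicate. HR and control stood in the same growth chamber in separate wooden boxes, so the box cannot be told apart from the warm roots. For comparison, the same pair of treatments on day 1 (6 other plants) and the plants with shoots at 35°C on day 11 with roots at 30°C (HRS, 3 plants) or at 22°C (HS, 3 plants) were used.

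Roots supply the leaf with water, nitrate, sulfate and hormones such as cytokinin and abscisic acid, so that leaf transcripts can change when the root alone is warmed. Leaves fix carbon by day, store part of it as starch in the chloroplast and break the starch down at night, largely through β-amylases. The circadian clock times much of this turnover, and GIGANTEA and the PRR proteins are among its day-phased components.

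The samples carried the transcripts of leaf. All 18 transcripts of the leaf markers (4 of 8 loci had a match) had control levels from 6181 to 306441 normalised estimated counts (geometric mean of 3 plants, not scaled to transcript length), and their sum was 1.63e+06 in control and 2.15e+06 in HR. The 10 tested transcripts of 6 flower markers summed to 1734 in control and 1600 in HR, of which 1383 and 1338 came from 1 copy of AP1, and PI and AG were listed but were below the level tested. The 5 transcripts of 3 root markers summed to 872.2 and 944.4, and CASP1 was below the level tested. In bulk leaf, fewer cells of a type and less RNA per cell cannot be told apart.

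On day 11, 269 of 30588 transcripts (0.879%) differed between HR and control leaves at an adjusted p under 0.05. Of these, 104 were higher in HR (0.34% of those tested) and 165 were lower (0.539%). Starch enzymes, 1 copy each of the clock genes GI, APRR5 and APRR9, FRUITFULL-like MADS-box genes and the cysteine proteases SAG12 and RD21A were among the transcripts called, and most of the called transcripts whose names place them in the chloroplast were higher. The effects were moderate. The median fold was 1.93 among transcripts higher in HR (from 1.53 to 20.2) and 2.03 among those lower (from 1.54 to 30.5), and 46 and 85 of them changed more than 2-fold. Across all transcripts tested the median b, the natural log of the ratio of HR to control, was 0.002, and the quartiles were -0.16 and 0.18. Plants of a group had a median SD of 0.21 on the same scale.

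The number called depends on the test. With limma on the same effects and residual variances 0 transcripts passed an adjusted p of 0.05 (smallest adjusted p 0.362), with 3379 at an unadjusted p under 0.05, and each of the 269 had an unadjusted limma p of at most 0.012. The pass itself requires an effect so large against the spread between plants that the 3 HR and the 3 control plants cannot overlap, so this holds for each of the 269 by construction and adds no support. Over all transcripts tested it holds for 7.92%. Scaled to the summed levels of all transcripts, which were 1.09-fold higher in HR, every effect is lower by 0.12 on the log2 scale, and 457 transcripts pass, of which 12.7% are higher in HR, against 38.7% with sleuth's scaling.

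**Figure D1:**
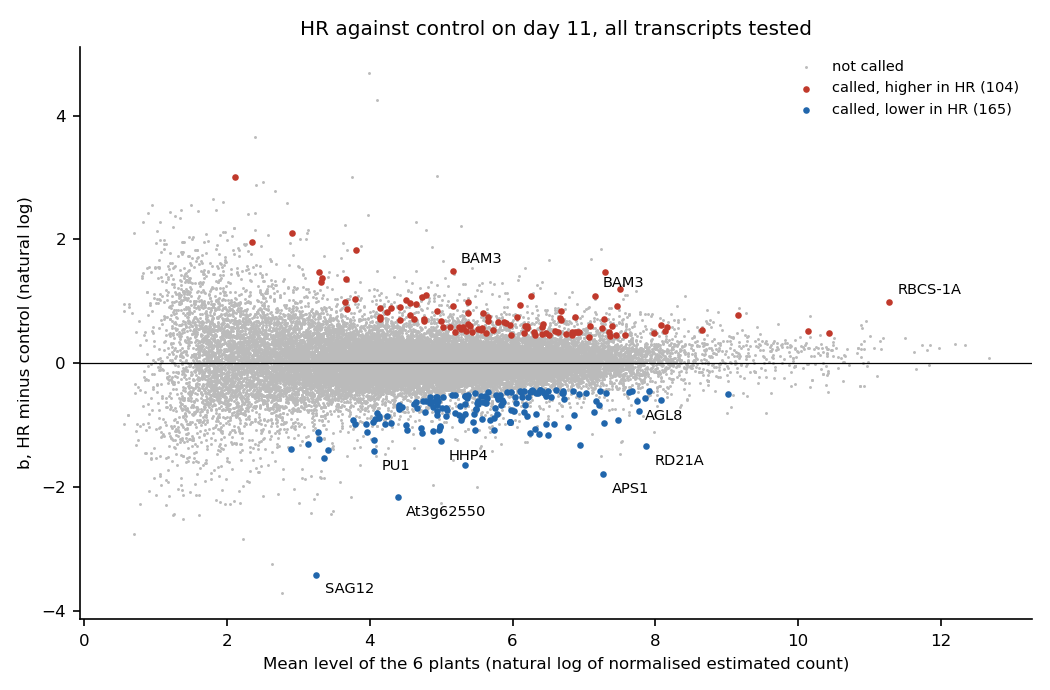
Effect b of HR against control on day 11 (vertical axis, natural log) against the mean level of the 6 plants (horizontal axis, natural log of normalised estimated counts) for every transcript tested. Red points are the 104 transcripts called higher in HR, blue points the 165 called lower and grey points the rest. Calls lie mostly at middle and high levels: of 4 bins of 7647 transcripts each, ordered by level, the lowest holds 13 calls and the highest 120.

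The list for sugar and starch metabolism held the most calls of any list and was also the largest. Of its 113 tested transcripts, 4 were higher in HR and 8 lower, together 10.6% against 0.879% of all transcripts. The median b of the list was 0.008 (0.002 for all). The lists were chosen with earlier results of these data known. The share called, here and in the lists below, is therefore a description and adds no support. The 4 that rose are both copies of BAM3, the plastid β-amylase that releases maltose from leaf starch at night in Arabidopsis, and both copies of BAM9, an inactive β-amylase. BAM3 AUR62018803 had a mean of 740.2 normalised estimated counts in control and 2198 in HR, with a pooled SD between plants of 0.28 (natural log, n = 3 in each group). This is 2.97-fold higher (95% interval 1.9 to 4.63, adjusted p = 0.00136). The less abundant copy, AUR62007199, went from 82.7 to 367.5 (pooled SD 0.46), a 4.44-fold difference (2.14 to 9.22, adjusted p = 0.0153). BAM9 was 2.01-fold higher in AUR62014139 (563.7 to 1131, adjusted p = 0.0059) and 1.89-fold higher in AUR62041243 (448.3 to 847.6, adjusted p = 0.0409). The HR plants were all above the control plants in these 4 transcripts, as the pass requires.

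Both copies of SS3, a starch synthase, were lower in HR, with 2601 normalised estimated counts in control and 1641 in HR for AUR62012712 and 3432 and 2194 for AUR62021943. Their b were -0.46 ± 0.12 (SE, adjusted p = 0.0292) and -0.45 ± 0.12 (adjusted p = 0.0394). The large subunit APL3 of ADP-glucose pyrophosphorylase, which makes the glucosyl donor for starch, was lower in 1 of its 2 copies, from 464.1 to 184.9 (b = -0.92 ± 0.23, adjusted p = 0.0183). Both copies of PHS2, the cytosolic glucan phosphorylase, were lower, from 1448 to 628.1 (AUR62001699, b = -0.84, adjusted p = 0.0086) and from 1181 to 370.8 (AUR62020083, b = -1.16, adjusted p = 0.0145). The debranching enzyme pullulanase, PU1, was 4.17-fold lower in AUR62029688 (117.5 to 28.2, pooled SD 0.47, adjusted p = 0.0292). Its other copy had a b of -0.91 that did not pass (adjusted p = 0.0959). Outside starch, SUS4, which cleaves sucrose, and TPS5, a trehalose-phosphate synthase homologue, were each lower in 1 of their 2 copies, with b of -0.46 (adjusted p = 0.0306) and -0.52 (adjusted p = 0.0116), while the other copies had -0.16 each.

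The other enzymes of the list did not pass. For DPE1, which disproportionates maltotriose in the plastid, both copies had positive b (0.46 and 0.55, smallest adjusted p 0.0509), and so did both copies of the isoamylase subunit ISA2 (0.58 and 0.48, smallest adjusted p 0.0639). The glucan, water dikinase GWD1, which opens starch for breakdown, had b of -0.26 and -0.14, and the other synthases SS1 and SS2 lay between -0.09 and 0.08. The calls were thus spread over synthesis and breakdown, in both directions, and the median of the list lay near that of all transcripts.

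Most transcripts for photosynthesis had a small positive b. Of 87 tested, 83 had a positive b (79 with scaling to totals), against 15427 of all 30588, with a median b of 0.27, or 1.31-fold. Of the 87, 2 passed the adjusted test (2.3% against 0.879% of all) and 85 did not. The 2 are copies of RBCS-1A, the small subunit of Rubisco. At an unadjusted p under 0.05, 38 were higher and 0 lower, against 1762 higher and 1547 lower of all 30588. RBCS-1A AUR62035539 had 47891 normalised estimated counts in control and 128491 in HR (2.68-fold, 1.6 to 4.5, pooled SD 0.32, adjusted p = 0.0292). AUR62008993 had 6378 and 13973 (2.19-fold, adjusted p = 0.0316). The 9 copies of RBCS-1A are close relatives among which reads may be shared, and their b ran from 0.07 in the most abundant copy (306441 to 330255) to 0.99, with sums of 672298 in control and 929275 in HR. Antenna proteins, which harvest light, had b from -0.10 to 0.63 for LHCB1.3 and of 0.45 and 0.57 for LHCB2.1, and Rubisco activase RCA had b of 0.31 and 0.29, none of which passed.

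Transcripts whose deposited name holds the word chloroplast were counted as well, a group chosen after values were seen. With the photosynthesis list left out, 1638 of 2254 (72.7%) had a positive b, against 50.4% of all, and 22 were called higher and 13 lower (1.55% against 0.879%). With scaling to totals 1380 of them were positive, when 11268 of all 30588 (36.8%) were. Among the 22, and picked after their values were seen, were CHLD, a subunit of the magnesium chelatase of chlorophyll synthesis (b = 0.48), PPOX1, a protoporphyrinogen oxidase of the same pathway (b = 0.53), TIC62 of the protein import apparatus (b = 0.58) and GAPA2 of the Calvin cycle (b = 0.49). Among the 13 lower were APS1 AUR62040723 (b = -1.80), SIB1 (b = -1.53) and PAP14, a probable plastid-lipid-associated protein (b = -0.59). Of 51 transcripts that match genes of the Arabidopsis plastid genome, 45 had a positive b, and 4 passed (7.84% against 0.879%), all higher: both copies of psaB (292.6 to 620.8 and 26.3 to 74.4), rbcL (524.2 to 1209) and ndhH (501.1 to 820.9). Whether their reads come from the plastid or from copies in nuclear DNA was not tested. The nuclear gene RPOT2, an RNA polymerase of organelles, was lower in both copies (189.2 to 66.5, adjusted p = 8.18e-07, and 435.0 to 245.6).

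**Figure D2:**
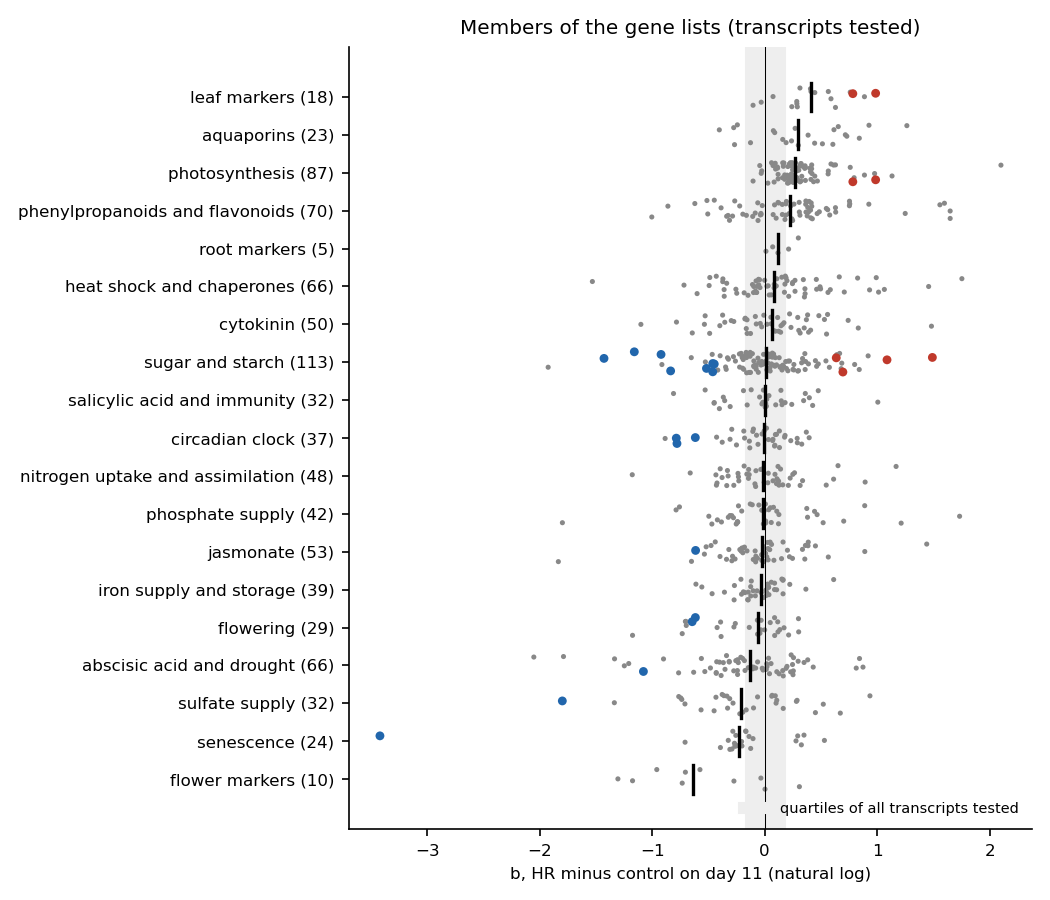
Effect b of HR against control on day 11 (horizontal axis, natural log) for each tested transcript of the gene and marker lists (rows, with the number of transcripts). Red and blue points passed the test as higher or lower in HR, grey points did not, black bars are list medians and the shaded band spans the quartiles of all transcripts. Photosynthesis members lie to the right of 0 in 83 of 87 cases, and sugar and starch members that passed lie on both sides.

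Of 37 clock transcripts, 3 passed (8.11% against 0.879%), all lower, in GI, APRR5 and APRR9. The list as a whole did not shift, with a median b of -0.004 and 18 of 37 positive. GIGANTEA (GI AUR62026637) had 609.3 normalised estimated counts in control and 279.6 in HR, 2.18-fold lower (b = -0.78 ± 0.17, pooled SD 0.21, adjusted p = 0.00275). Its other copy, AUR62034894, had 545.3 and 225.2 and did not pass (adjusted p = 0.0615). The pseudo-response regulators APRR5 (AUR62005995, 175.0 to 79.8, adjusted p = 0.0184) and APRR9 (AUR62028076, 157.0 to 84.8, adjusted p = 0.0292) were lower in 1 copy each. Their far more abundant copies had b of -0.10 (APRR5 AUR62004561, 3427 to 3086) and -0.13 (APRR9 AUR62022677, 3559 to 3121), which did not pass. The morning gene LHY had b of 0.37 and 0.23, neither passing. Outside the list, and chosen after their values were seen, LWD1, a WD-repeat clock protein, was lower (b = -0.73, adjusted p = 0.0056), as were 3 of the 5 copies of RBG7, a glycine-rich RNA-binding protein under clock control (b = -0.83, -0.82 and -0.68).

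Of 29 flowering transcripts, 2 passed (6.9% against 0.879%), both lower and both of AGL8, known as FRUITFULL, a MADS-box regulator that promotes flowering and fruit development in Arabidopsis. AGL8 AUR62039674 had 3132 normalised estimated counts in control and 1693 in HR (1.85-fold lower, pooled SD 0.16, adjusted p = 0.00131), and AUR62039675 had 585.6 and 307.6 (1.9-fold lower, adjusted p = 0.00532). These 2 have consecutive identifiers and similar b on day 11 (-0.62 and -0.64) and on day 1 (0.27 and 0.29). Whether they share reads was not tested, so they may not be 2 independent calls. All 5 tested copies had negative b, from -0.26 to -0.70. Of the 10 flower marker transcripts, 8 had a negative b, with a median of -0.64 and none passing, and without the abundant copy of AP1 they summed to 351.1 in control and 262.4 in HR. Their part in the AGL8 result was not tested. The 4 tested copies of FT, the mobile flowering signal made in leaves, had b from -0.42 to 0.14 and did not pass.

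Single genes of senescence, drought and defence passed, most of those named as lower, while the lists as a whole held few calls. SAG12, a protease of late leaf senescence, had 142.6 normalised estimated counts in control and 4.67 in HR, 30.5-fold lower, with a pooled SD of 1.09 and a wide 95% interval (HR at 0.00575 to 0.187 of control, adjusted p = 0.023). It was the only 1 of 24 senescence transcripts to pass (4.17%, against 0.879% of all), and 19 of the 24 had a negative b (median -0.23). RD21A, a drought-induced vacuolar protease, went from 5145 to 1342 (3.83-fold lower, pooled SD 0.25, adjusted p = 4.94e-07). RD22, a dehydration-responsive BURP protein, was the 1 of 66 transcripts for abscisic acid and drought that passed (1.52%, 1 call, near the 0.879% of all), with 246.1 in control and 83.8 in HR (adjusted p = 0.0134), and 40 of the 66 had a negative b. The other 4 copies of RD22 were more abundant and had b from 0.16 to 0.26, which did not pass. In the jasmonate list, too, 1 of 53 passed (1.89%): OPR3 AUR62025196, an enzyme of jasmonate synthesis, from 163.0 to 88.3 (adjusted p = 0.0273). The cell wall receptor kinase WAK2 (157.5 to 53.2, adjusted p = 3.48e-06) and SIB1, a sigma factor binding protein of the chloroplast (61.7 to 13.3, adjusted p = 0.0034), were also lower. Chosen after their values were seen, the oxidase RBOHB (b = -0.68) and the receptor kinases WAK5 (b = -1.22) and CRK29 (b = -1.01) were lower, while WAK1 was higher (b = 0.57). Of the 17 tested copies of the Kunitz trypsin inhibitor KTI2, also chosen after their values were seen, 3 passed, all lower (b from -1.15 to -0.49). Of 1848 transcripts whose name holds kinase or receptor, 4 were higher and 16 lower (1.082%, near the 0.879% of all), with a median b of -0.02. In the salicylic acid and immunity list 0 of 32 passed the Wald test, and 17 had a positive b. At an unadjusted p under 0.05 the list held 6, against 3309 of all 30588, and limma called 0.

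**Figure D3:**
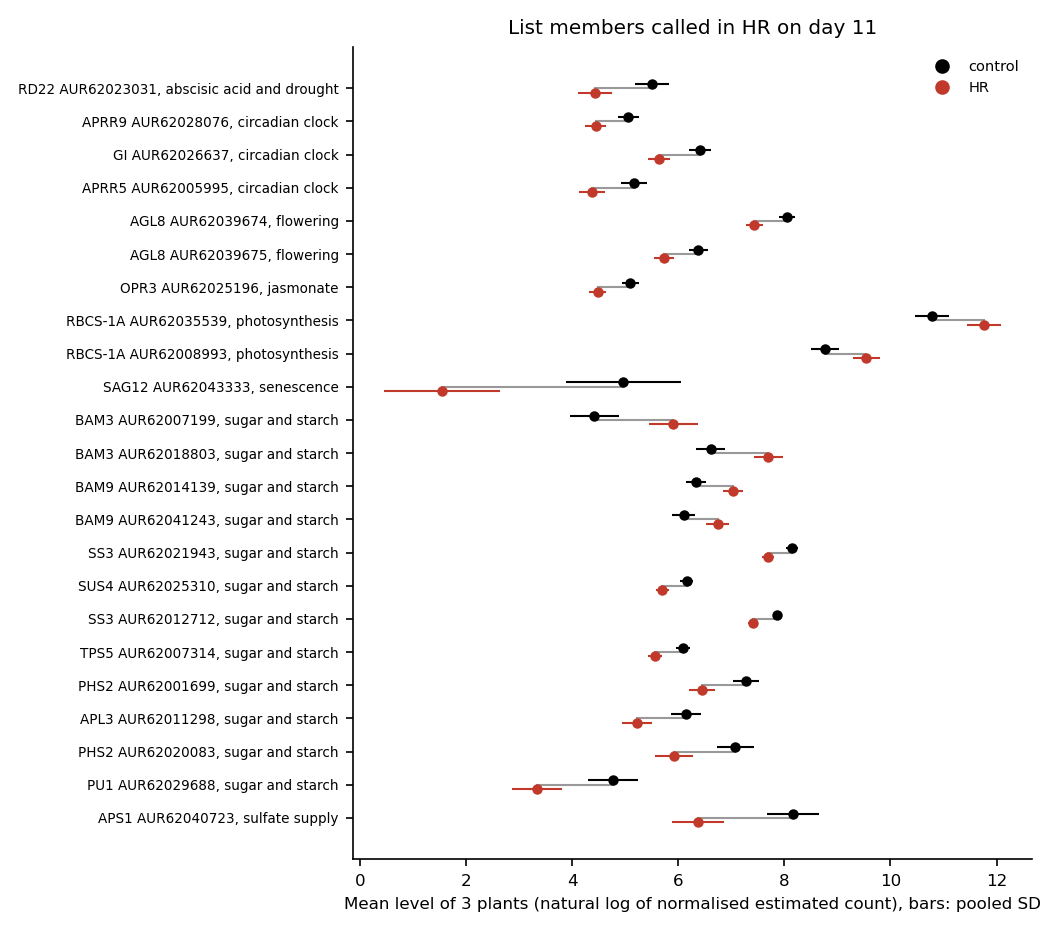
Mean level of the 3 control plants (black) and the 3 HR plants (red) for the 23 list members that passed the test on day 11 (horizontal axis, natural log of normalised estimated counts). Bars show the SD between plants pooled over both groups, and SAG12 has the widest at 1.09.

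In the sulfate list 1 transcript passed, a copy of APS1, an ATP sulfurylase, which activates sulfate. APS1 AUR62040723 had 3533 normalised estimated counts in control and 585.2 in HR (6.04-fold lower, HR at 0.0757 to 0.362 of control, pooled SD 0.49, adjusted p = 0.00375), 1 call among 32 (3.12%, against 0.879% of all). Its other copy had a b of -1.34 with a larger spread (SD 0.69, adjusted p = 0.307), and both copies of APS2, the other ATP sulfurylase in the list, had positive b (0.67 and 0.52), none passing. Of the 32, 20 had a negative b (median -0.21). Plants of a group differed widely in some members, with a pooled SD of 1.67 and 1.64 for SDI1 and 1.34 and 0.99 for LSU1, against a median of 0.21 over all transcripts.

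In the lists for heat shock and chaperones (66 transcripts), nitrogen (48), phosphate (42), iron (39), aquaporins (23), cytokinin (50), salicylic acid and immunity (32) and phenylpropanoids (70), 0 passed the Wald test. At an unadjusted p under 0.05 they held 6, 4, 7, 1, 8, 10, 6 and 7 transcripts in the same order. Over all 30588 transcripts tested, 3309 (10.8%) had such a p. With limma, 0 were called in each list. Their members with the smallest p were the small heat shock protein HSP17.6C (28.7 to 79.0, adjusted p = 0.264), the ammonium transporter AMT1-1 (14.0 to 45.0, adjusted p = 0.0571), the phosphate transporter PHT1-9 (adjusted p = 0.211), the iron store ferritin FER2 (adjusted p = 0.346), the aquaporin PIP1.4 (615.7 to 1185, adjusted p = 0.0651), the cytokinin response regulator ARR2 (771.9 to 518.5, adjusted p = 0.0766), WRKY33 (adjusted p = 0.219) and 4CL2 of lignin synthesis (213.1 to 325.8, adjusted p = 0.104). The PIP1.4 copy named is AUR62022576, 1 of 5 tested. Its far more abundant copies, AUR62012222 (14723 to 16109) and AUR62022854 (19706 to 21301), had b of 0.09 and 0.08. The remaining copies, AUR62004367 and AUR62010692, had b of 0.72 and -0.40. Aquaporins had a median b of 0.30, with 18 of 23 positive.

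The smallest p-values fell outside the lists. HHP4, a heptahelical membrane protein, had 276.5 normalised estimated counts in control and 78.2 in HR (3.54-fold lower, pooled SD 0.20, adjusted p = 4.47e-10). SLAH3, an S-type anion channel that conducts nitrate and chloride, went from 2790.4 to 1119 (2.49-fold lower, pooled SD 0.14, adjusted p = 1.39e-09). FBA3, a plastid aldolase (245.3 to 86.7), At1g56300 (228.3 to 75.9), PATL2, a patellin of membrane traffic (760.6 to 323.5), and At4g02340 (580.1 to 271.1) were lower as well. Among those higher in HR, the smallest p belonged to the B-box zinc finger gene At1g68190 (110.1 to 279.1, adjusted p = 4.94e-07), the putative disease resistance gene At3g14460 (664.6 to 1409.9), the lipase At3g26430 (54.1 to 149.9) and VUP1 (69.0 to 207.0). The actin nucleator FH1, At4g24700, At1g68440, the tropinone reductase homologue At1g07440 and the oxygenase At5g20400 had b from 0.56 to 1.48. Among transcripts with an Arabidopsis match and a mean level of at least 3 (natural log), the largest effects beside BAM3, At5g20400 and SIB1 were those of MFB16.14, a heavy metal transport protein (18.1 to 112.1), MJK13.13 (706.0 to 3058) and the transcription factor MYB1 (14.1 to 55.7) on the higher side, and those of SAG12, At3g62550 (238.3 to 27.4, pooled SD 0.73), APS1 and the transporter ABCC10 (470.9 to 91.4) on the lower side. For ABCC10, 2 of the 16 tested copies passed, both lower.

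Quinoa is a tetraploid, and copies of a gene could be compared. In 26 loci 2 or more copies passed, and in 24 of them all called copies went the same way, 9 higher and 15 lower. Of all 269 calls, 61.3% were lower. The share of copies with the same direction was not computed over all loci. The loci counted range from those with 2 tested copies, such as SS3, to KTI2 with 17. Similar copies may share reads, which was not tested, so the 24 are a description. SMXL8, a repressor of strigolactone signalling in Arabidopsis, was lower in both of its copies (533.9 to 180.5 and 1055 to 393.0). The exceptions were At1g21440, with 1 copy higher and 2 lower of 9 tested, and the translation elongation factor eEF1A locus AT1G07940, with 2 higher (b = 0.51 and 0.45) and 1 lower (b = -0.98) of 5 tested. A copy of the related eEF1A locus AT5G60390 was also lower (1479 to 525.9, adjusted p = 7.4e-07). Copies of eEF1A are near-identical, and reads may have been divided between them. Of the 269, 4 transcripts without a match held identical values, and 266 remain when these are counted once.

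Warm and cool roots could also be compared in other plants, as the difference between HRS and HS on day 11, both with shoots at 35°C. Neither the HR nor the control plants enter this difference, but HRS and HS also stood in separate boxes. The way root temperature was set differed as well. The methods describe a heating coil in the HR box, but in the hot chamber a cool water line in the HS box. The difference is thus not a repeat of the same treatment. Of 29947 transcripts tested, 1159 (3.87%) differed between HRS and HS. Of the 267 HR calls tested there, 250 (93.6%) had the same sign, against 68.2% of all 29676 transcripts tested in both. The shares were 96 of 102 for those higher in HR and 154 of 165 for those lower. The difference passed in 88 of them, which is 33% against 3.87%, and 87 of the 88 had the sign seen in HR. Their median was 1.11 for those higher (0.65 in HR) and -0.73 for those lower (-0.71 in HR).

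Some of the starch results had the same direction there. BAM3 was higher in HRS than in HS by 1.303 ± 0.33 (SE, natural log, adjusted p = 0.0066, Wald z test) and by 2.68 ± 0.58 (adjusted p = 0.000994) in its copies, and BAM9 by 1.06 (adjusted p = 0.00171) and 1.17 (adjusted p = 5.84e-06). Against control, BAM3 AUR62018803 had b of -1.53 in HS and -0.22 in HRS, AUR62007199 had -1.61 and 1.07, and the BAM9 copies had -0.13 and -0.23 in HS and 0.93 and 0.94 in HRS. RBCS-1A AUR62035539 was higher in HRS than in HS by 3.90 ± 0.79 (adjusted p = 0.000344), with b against control of -3.51 in HS and 0.39 in HRS. The 87 photosynthesis transcripts had a median difference of 1.06, with medians against control of -1.17 in HS and -0.06 in HRS, so that, unlike in HR, HRS leaves were near control and HS leaves below it. The same AGL8 copies were lower in HRS than in HS, with differences of -1.12 and -1.25 (adjusted p = 0.0223 and 0.0201), and RD22 AUR62023031 fell by 2.58 ± 0.51 (adjusted p = 0.000307). Against control these AGL8 copies had b of -0.62 and -0.65 in HS and -1.74 and -1.90 in HRS, so they were below control with cool roots and hot shoots too. SS3, PHS2, APL3, PU1, GI, APRR5 and APRR9 (the copies called in HR) had the same sign as in HR without passing, from -0.19 to -2.18. The difference of -0.19 is that of APRR9 AUR62028076, with a standard error of 0.77. Against control this copy had b of -0.62 in HR, -0.98 in HS and -1.17 in HRS, so it was below control with cool roots and hot shoots too.

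APS1 AUR62040723 went against this pattern. It was lower in HR (b = -1.80 ± 0.40) but higher in HRS than in HS by 1.76 ± 0.27 (adjusted p = 2.46e-07), the only called opposite pair of the 88. Against control it had b of -1.62 in HS and 0.14 in HRS, so that for this copy HR and HS leaves were low and HRS leaves were near control. The other copy, AUR62043620, had b of -0.10 in HS and 0.93 in HRS (difference 1.03, adjusted p = 0.61). Both copies of APS2 were also higher in HRS than in HS, by 1.32 (adjusted p = 0.004) and 1.12 (adjusted p = 0.0066), the direction of their b in HR. For some transcripts the HRS to HS difference was near 0 while each treatment was below control. Examples are SLAH3 (HR -0.91, HS -0.96, HRS -1.05, difference -0.09), WAK2 (-1.09, -1.92, -1.84 and 0.08) and SUS4 (-0.46, -0.54, -0.51 and 0.03). SAG12 was also below control in HS (b = -1.64) and in HRS (b = -3.57). Its HRS to HS difference did not pass (-1.93 ± 1.45, adjusted p = 0.594, z test). The HR, HS and HRS comparisons share the same 3 control plants.

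**Figure D4:**
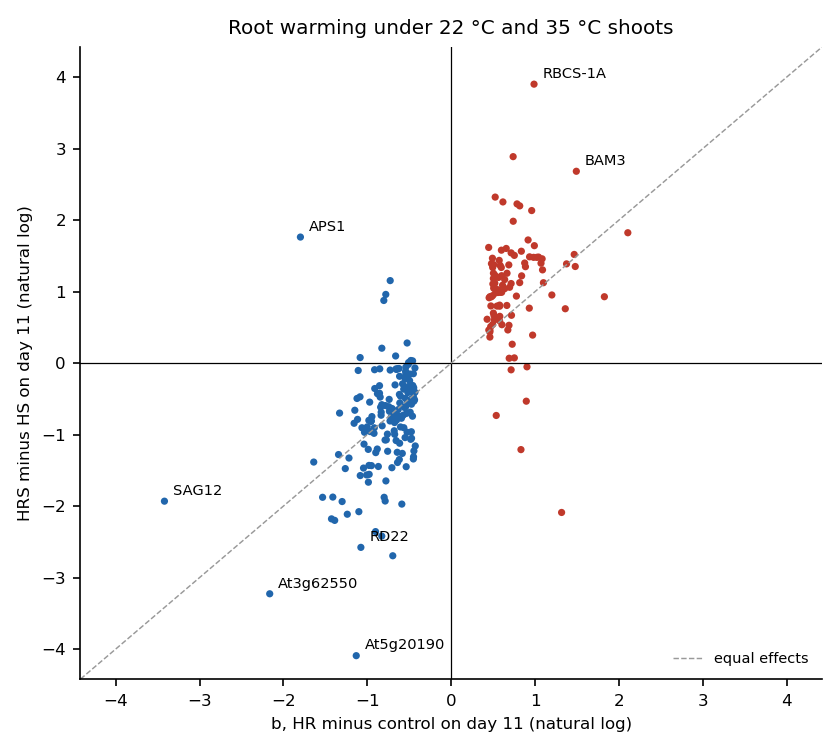
Difference between HRS and HS on day 11 (vertical axis, natural log) against b of HR against control on day 11 (horizontal axis, natural log) for 267 transcripts called in HR, red where higher and blue where lower in HR. The dashed line marks equal effects. Of the points, 250 have the same sign on both axes, and APS1 stands at -1.80 and 1.76.

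On day 1, in 6 other plants, 172 of 30320 transcripts (0.567%) passed in HR against control. Of the 265 day 11 calls tested on day 1, 200 (75.5%) had the same sign then, against 54.6% of all transcripts. Among those higher on day 11, 85 of 100 had the same sign, with a median b of 0.31 on day 1 and 0.64 on day 11. Among those lower, 115 of 165 had the same sign, with medians of -0.09 and -0.71. In 251 of the 265 the day 11 effect was the larger in size, which the selection on day 11 favours. Only 6 passed on both days, each higher on both: BAM3 AUR62018803 (b = 0.93 ± 0.14 on day 1), At4g24700, At1g07440, the thaumatin-like At1g73620, At1g21440 and At2g21530. The 87 photosynthesis transcripts had a median b of 0.34 on day 1.

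A test of the difference between the days passed in 6 of 29439 transcripts (0.0204%), with 1664 at an unadjusted p under 0.05. HHP4 had a b of -0.02 ± 0.19 on day 1 and -1.26 ± 0.16 on day 11 (difference -1.24, adjusted p = 0.00758, z test), and At1g56300 had 0.10 ± 0.12 and -1.10 ± 0.16 (difference -1.20, adjusted p = 0.000117). AT5G60390 and F4P12_370 (At3g53670) had b of -0.11 and 0.19 on day 1 and of -1.03 and -0.55 on day 11, with differences of -0.92 and -0.74 (adjusted p = 0.0335 and 0.0498). 4CL2, which passed as lower on day 1, went from -0.47 to 0.42 (difference 0.89, adjusted p = 0.00758) and CSLG1, a cellulose synthase-like protein, from 0.53 to -0.93 (adjusted p = 0.0498), without either passing the test on day 11. For the other day 11 calls tested on both days, a difference between the days was not detectable with 3 plants a group.

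**Figure D5:**
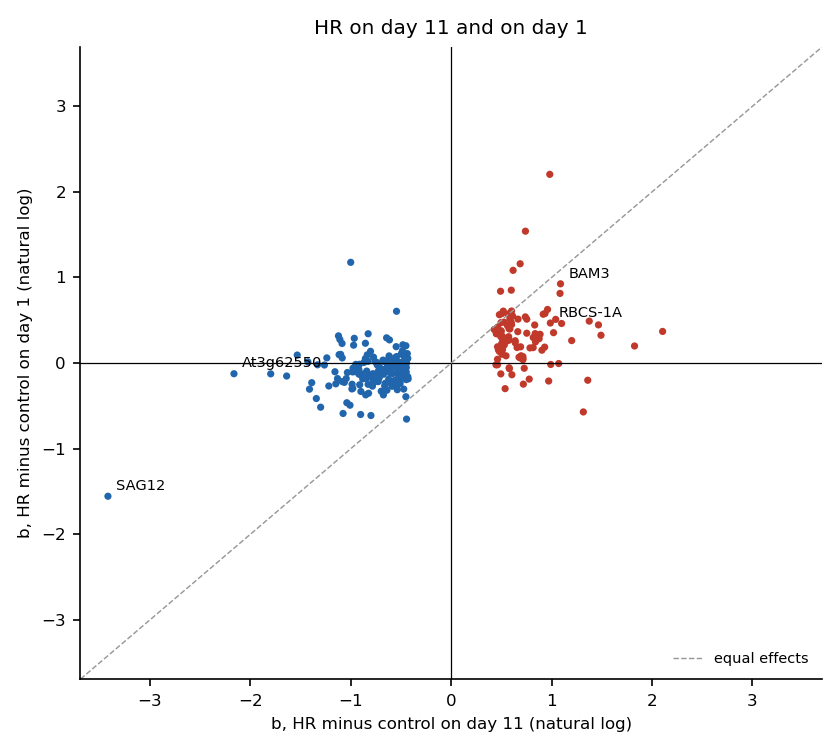
Effect b of HR against control on day 1 (vertical axis, natural log) against that on day 11 (horizontal axis, natural log) for the 265 transcripts called on day 11 and tested on both days, red where higher and blue where lower on day 11. The dashed line marks equal effects, and 251 points have the larger effect on day 11.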

How the data were processed

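Leaf RNA-seq of 6 plants (3 HR and 3 control, day 11) was analysed through the authors' deposited table of sleuth 0.30.0 results, which followed trimming with trimmomatic and pseudoalignment to quinoa v1.0 transcripts with kallisto. In this table the authors' deposited values b, its standard error and the mean level are on the natural log scale of normalised estimated counts, and the other deposited measures used, such as the variance components, are on the squared natural log scale. The table used holds 0 columns of single plants. The study gives the reads of each library in its supplement, which were not used here, and the precision of a value is given by its standard error. The deposited p-values and q-values are the authors' own tests and were not used.

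Group levels were recovered as the mean level minus or plus b/2, and the SD between plants from the variance of the 6 values and b, pooled over both groups. The Wald z of b over its standard error was adjusted by Benjamini-Hochberg over all 30588 transcripts tested, with a threshold of 0.05. All adjusted p-values of HR against control are from this test, which has the form of sleuth's Wald test. HR effects of days 11 and 1 were compared by a z test with the summed squared standard errors. HRS was compared with HS on day 11 as the difference of their effects, in which the control plants cancel. The control level recovered from the HRS fit differed from that of the HS fit by a median of -0.16, with an interquartile range of 0.0017, so the offset was nearly common to all transcripts. Its standard error was the root of the sum of both squared standard errors, which also holds the spread of the control plants and is therefore an upper bound. As a moderated test, b and its residual variance were passed to limma (version 3.58.1 under R 4.3.3) with a trend over level. Scripts used scipy 1.17.1, pandas 2.3.3 and numpy 2.4.6 under Python 3.11.15, and plots matplotlib 3.10.9. The tests were also run on simulated data. Their spread was drawn from the same variances that the standard errors use, so they cannot show whether the Wald test calls too many transcripts with 3 plants a group.

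The genes named by rule are, among called transcripts with an Arabidopsis match and a mean level of at least 3 (natural log), the 10 with the smallest p and the 5 with the largest effect in each direction, every called member of the 16 gene lists, the 5 with the smallest p between days, and the member with the smallest p of a list without calls. Other genes named fall outside this rule, such as SMXL8, CSLG1, the plastid genes and further list members that did not pass. Only some of these are marked as chosen after their values were seen. The members and lists were chosen with earlier results of these data known. Lists were matched on the Arabidopsis locus that the table gives, and symbols are those of that match. Alternatives were other thresholds, limma, a t distribution, no shrinkage of the variance, a filter on level, a minimum effect, median centring and scaling to totals.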

Additional observations from a re-analysis of the deposited data

Results flagged for a closer look

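The HR effect differed between day 11 and day 1 in 6 transcripts by the z test of the difference (Benjamini-Hochberg adjusted over 29439). Among those named, the difference of b (day 11 minus day 1, natural log) was -1.20 for At1g56300, -1.24 for HHP4, 0.89 for 4CL2, -0.92 for AT5G60390 and -0.74 for F4P12_370. The second copy of At1g56300, AUR62005258, had a b of -0.76 on day 11 and 0.02 on day 1 (adjusted p for the difference 0.0643). With a t distribution in place of the normal none of the 6 passed.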

How the results depend on the processing

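The count of 269 calls in HR moved to 88 and 451 at thresholds of 0.01 and 0.1, to 131 with a minimum effect of ln 2 (2-fold), to 2254 without shrinkage of the variance and to 457 with scaling to totals (58 higher and 399 lower, 223 shared with the 269). It was 293 above the lower quartile of level and 264 after median centring. It fell to 0 with limma and to 0 with a t distribution of 4 degrees of freedom, with 3379 and 867 transcripts at an unadjusted p under 0.05. The 23 list members called became 0 with limma (150 had an unadjusted p under 0.05) and, with scaling to totals (chosen after seeing the data), 32. The 6 transcripts that differ between the days became 0 with a t distribution of 8 degrees of freedom (802 at an unadjusted p under 0.05). The 1159 of HRS against HS became 1824 at a threshold of 0.1 and 5116 if all groups had equal spread. Of the 49 named transcripts called, each lost its call with limma (adjusted p from 0.362 to 0.381) and 3 with scaling to totals (RBCS-1A AUR62008993, BAM9 AUR62041243 and MJK13.13), with no sign changed in either. No paired analysis was possible because the table used holds no values of single plants, and leaving out each plant in turn was not run for the same reason. Standard errors were largest at low levels, with a median of 0.49 in the lowest of 4 bins of level and 0.13 in the highest.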
